A study of Mus musculus with 6 samples.

Results

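Polycomb group proteins and the enzymes that add or remove methyl groups on histone H3 were examined as a group of 37 genes in motor neurons (MNs) made from mouse embryonic stem cells (mESCs). The members were taken from a list of named subunits of the Polycomb complexes, histone demethylases, H3K9 methyltransferases and the corepressor Trim28. Each symbol was matched to the gene table of the RNA sequencing, and its entry with the highest level was used. All 37 members were found, out of 33416 gene entries with a symbol, and each had 1 entry. All 37 had at least 1 FPKM (a level scaled to the length of the transcript and to the number of mapped fragments) in both genotypes, so none was lost to the filter on low values.

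The study compared MNs with and without the mouse gene for the survival motor neuron protein, which is deficient in spinal muscular atrophy (SMA). Both groups were FVB/N cells bearing an HB9:eGFP reporter, in which a motor neuron promoter drives a green fluorescent protein. Embryoid bodies were treated for 5 days with 1 µM retinoic acid and 1 µM Smoothened agonist, and viable green cells were sorted. The Hb9 control group (3 samples) is labelled wildtype, and the study's methods give the line as carrying the human SMN2 transgene as well. The A2 SMA group (3 samples) has the genotype SMN2+/+;mSmn-/-, with the human transgene and no functional mouse gene. Each genotype is represented by 1 cell line, so effects of genotype and of line cannot be told apart.

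Polycomb repressive complex 2 (PRC2) methylates lysine 27 of histone H3, a mark of silenced developmental genes. PRC1 reads that mark through its CBX subunits, ubiquitinates histone H2A through its RING ligases, and is assembled from families of interchangeable paralogs. In the passage from stem cell to neuron, the paralogs in use change while the complexes stay in place, and lysine demethylases and H3K9 methyltransferases act on the same chromatin.

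The table gives 1 FPKM value per genotype, which the authors' software combined from the 3 samples. No value below therefore has an SD or a replicate check, and the table does not give the number of reads behind a value. The log2 ratio is the level in A2 SMA over that in Hb9 control MNs. Over the 14964 named gene entries that reached 1 FPKM in a genotype and were above 0 in both, the median log2 ratio was -0.29. Because the median gene was lower in A2 SMA MNs, ratios are also given relative to it. A gene was called higher or lower where the ratio reached 2-fold.

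The knocked-out gene and the sorting gene were read first. Smn1, the mouse survival motor neuron gene, was at 137 FPKM in Hb9 control and 5.26 FPKM in A2 SMA MNs, with a log2 ratio of -4.70. Mnx1, which encodes the HB9 protein whose promoter drives the reporter, was at 41.2 and 44.2 FPKM.

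The cells labelled as MNs differed in their markers. Of 9 motor neuron markers 8 were matched, and their summed level was 242 FPKM in Hb9 control and 63.9 FPKM in A2 SMA MNs. Isl1, a LIM homeobox factor and the most abundant of them in Hb9 control MNs, was at 108 and 5.95 FPKM, and all markers of the list but Mnx1 were more than 2-fold lower in A2 SMA MNs. Of the markers named after their values were seen, Chat, the enzyme that makes acetylcholine, was at 15.5 and 0.344 FPKM, and Lhx3, a partner of Isl1, was at 27.6 and 0.348 FPKM. No marker was listed at 0, but 4 of the 8 (Lhx3, Lhx4, Chat and Slc5a7) were below 1 FPKM in A2 SMA MNs, against 1 of 8 (Slc5a7) in Hb9 control MNs. In the cells labelled A2 SMA MNs, the markers above 1 FPKM were thus Mnx1, the intermediate filament gene Prph at 11.3 FPKM, Isl1 and, at 1.15 FPKM, Isl2.

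Lists of stem cell, neuronal and progenitor markers differed between the groups as well, and the list of cycling cells differed less. All 10 embryonic stem cell markers were higher in A2 SMA MNs, 9 of them 2-fold or more, and their sum was 244 FPKM in Hb9 control and 1531 FPKM in A2 SMA MNs. Pou5f1, a core factor of pluripotency and the most abundant of the 10, was at 98.3 and 775 FPKM. Of 8 pan-neuronal markers 6 were matched, with a sum of 928 and 113 FPKM, led in Hb9 control MNs by the neurofilament gene Nefm at 359 and 15.2 FPKM and in A2 SMA MNs by Stmn2 at 78.0 FPKM. The 7 matched of 8 ventral neural progenitor markers summed to 949.8 and 43.8 FPKM, led in Hb9 control MNs by the lipid carrier gene Fabp7 at 553 and 5.52 FPKM. In A2 SMA MNs that list was led by Pax6, a factor of neural progenitors, at 22.4 and 21.4 FPKM. The 10 cycling cell markers summed to 1252 and 1434 FPKM, led in Hb9 control MNs by the topoisomerase gene Top2a at 384 and 334 FPKM and in A2 SMA MNs by Cdk1 at 335 FPKM, and none was 2-fold different.

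Lists of cells that could accompany the culture were read as well. The 6 feeder fibroblast markers summed to 62.6 FPKM in Hb9 control and 30.1 FPKM in A2 SMA MNs, led by the collagen genes Col1a2 in Hb9 control MNs at 20.1 and 8.93 FPKM and Col1a1 in A2 SMA MNs at 9.41 FPKM, and 5 of the 6 were 2-fold or more lower in A2 SMA MNs. The 6 endoderm markers summed to 35.2 and 24.1 FPKM, led by the transcription factor gene Gata4 at 16.9 and 10.7 FPKM, with 1 marker 2-fold or more higher and 1 lower. The higher one, Afp, named after its value was seen, was below 1 FPKM in both genotypes, at 0.406 and 0.832 FPKM. The 6 glial markers summed to 48.3 and 16.8 FPKM, led by the myelin gene Mbp at 18.0 and 10.3 FPKM, and 4 of the 6 were 2-fold or more lower. None of the markers in these lists was listed at 0 in either genotype, but the marker lists were not filtered by level. Aqp4, a glial marker that was lower and was named after its value was seen, was at 0.421 and 0.0366 FPKM. Of all genes past the filter, 6.82% were 2-fold or more higher and 22.4% lower. The part of the marker differences in the results on the 37 members was not tested. In these bulk samples, fewer cells of a type and less RNA per cell cannot be told apart.

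As a group, the 37 members were expressed above the typical gene. Their median level was 69.6 FPKM in Hb9 control and 51.1 FPKM in A2 SMA MNs, against 17.6 and 12.9 FPKM over all 14964 genes. Trim28 was the most abundant member in both genotypes and Pcgf1 the least.

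Most members differed by less than 2-fold. In A2 SMA MNs 2 of 37 members were called higher, where 6.82% of all genes were, and 4 of 37 were called lower, where 22.4% of all genes were. These are 5.41% and 10.8% of the members, so the share called higher was near that of all genes and the share called lower was below it. Relative to the median gene, 4 members were called higher (10.4% of all genes) and 3 lower (16.5% of all genes). The median log2 ratio of the members was -0.25, or 0.04 relative to the median gene, so its sign turns with the scaling. The middle 50% of all genes lay between -0.89 and 0.19, and that of the members between -0.62 and 0.22.

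The direction of 29 members was the same under all 4 scalings that were compared: 13 were above 0 and 16 were below 0. Each scaling adds a constant to all ratios, so this count restates the ratios and is no separate support. Of all 14964 gene entries, 5098 were above 0 as deposited and 7482 were below 0 relative to the median gene. Some of the 29 lay close to 0, such as Ezh2 and Setdb1 at 0.01 as deposited and Pcgf1 at -0.003 relative to the median gene. For the other 8, Cbx6, Cbx7, Kdm1a, Kdm5a, Pcgf2, Pcgf3, Rnf2 and Suv39h2, the sign depended on the scaling, and they are given below by their levels. For 11 members, or 29.7%, against 14.0% of all genes, the table gives the status FAIL, meaning that the comparison by Cuffdiff did not complete, and this is stated beside each of them. The plot of levels by role shows all 37 members in both genotypes.

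**Figure D1:**
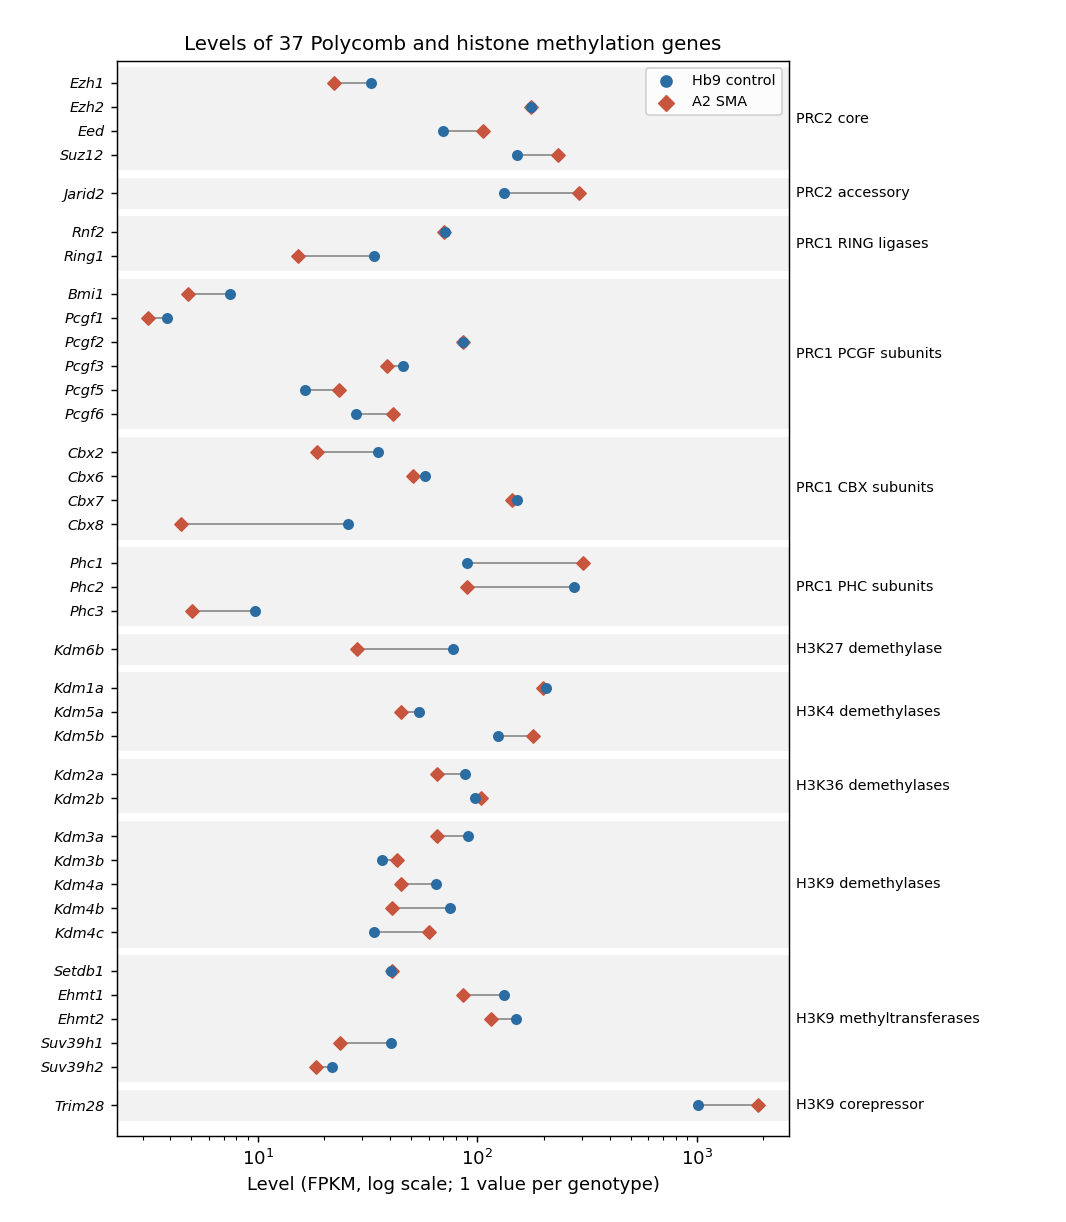
Level of each of the 37 members in FPKM on a log scale, by role, with 1 value for Hb9 control (circle) and 1 for A2 SMA (diamond) joined by a line. Cbx8, Phc2, Kdm6b and Ring1 have their diamond far to the left of the circle, and Phc1 and Jarid2 far to the right.

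PRC2 is built on a core of 3 proteins, a methyltransferase (Ezh1 or Ezh2), Eed and Suz12. Ezh2, the main methyltransferase of dividing cells, was at 175 FPKM in Hb9 control and 176 FPKM in A2 SMA MNs, with a log2 ratio of 0.01 (0.30 relative to the median gene). Ezh1, its paralog found more in non-dividing cells, was at 32.7 and 22.3 FPKM, a log2 ratio of -0.55 (-0.26 relative to the median gene; status FAIL). Ezh2 was thus the larger source of transcript in both genotypes, and the ratio of Ezh2 to Ezh1 was 5.34 in Hb9 control and 7.90 in A2 SMA MNs. Eed, which binds the methylated lysine and stimulates the enzyme, was at 69.6 and 106 FPKM, a log2 ratio of 0.60 (0.89 relative to the median gene). Suz12, the scaffold that holds the core together, was at 151 and 233 FPKM, a log2 ratio of 0.63 (0.92 relative to the median gene; status FAIL). The core thus held 3 genes above 0 and 1 below under each scaling, with a median log2 ratio of 0.31, though Ezh2 was nearly level as deposited. Of the 14964 gene entries, 5098 were above 0 as deposited and 7482 relative to the median gene. None of the core genes reached 2-fold, and 10590 of the 14964 gene entries did not either.

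Jarid2, an accessory subunit that helps to recruit PRC2 to chromatin in stem cells, was the PRC2 member that was called. It was at 132 FPKM in Hb9 control and 290.1 FPKM in A2 SMA MNs, which is 2.20-fold higher and a log2 ratio of 1.14 (1.43 relative to the median gene). Among all genes, 94.2% had a lower log2 ratio. By level Jarid2 was ninth of the 37 members in Hb9 control MNs and the third in A2 SMA MNs. Over the 5 PRC2 members the median log2 ratio was 0.60 (0.89 relative to the median gene).

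PRC1 carries a RING ligase, of which the mouse has a pair. Rnf2 (RING1B), the main H2A ubiquitin ligase, was at 71.3 and 70.4 FPKM in Hb9 control and A2 SMA MNs, with a log2 ratio of -0.02 that becomes 0.27 relative to the median gene. Ring1 (RING1A), its paralog, was at 33.7 and 15.3 FPKM, 2.21-fold lower in A2 SMA MNs, with a log2 ratio of -1.14. Relative to the median gene its ratio was -0.85, so its call as lower rested on the scaling. Ring1 made up 32.1% of the summed level of the pair in Hb9 control MNs and 17.8% in A2 SMA MNs.

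Each PRC1 also holds 1 PCGF protein, which decides the type of complex. The 6 PCGF genes summed to 187 FPKM in Hb9 control and 197 FPKM in A2 SMA MNs. None reached 2-fold, and 10590 of the 14964 gene entries did not either. Pcgf2 (MEL18), found in canonical PRC1 and the most abundant of the 6, was at 85.6 FPKM in both genotypes, while its locus is shared with Cisd3. Bmi1 (PCGF4), the other canonical subunit, known for the self-renewal of neural stem cells, was at 7.46 and 4.84 FPKM, a log2 ratio of -0.62 (-0.33 relative to the median gene). Pcgf2 was thus 11.5 times as abundant as Bmi1 in Hb9 control and 17.7 times in A2 SMA MNs.

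The remaining 4 PCGF genes serve variant PRC1. Pcgf6, of the complex with L3mbtl2, Mga and Max, was at 28.1 and 41.3 FPKM, a log2 ratio of 0.55 (0.85 relative to the median gene). Pcgf5, of a complex with Auts2, was at 16.4 and 23.4 FPKM, a log2 ratio of 0.51 (0.80 relative to the median gene). Both were above 0 under each scaling and below 2-fold. Pcgf3, its close relative, was at 46.0 and 38.6 FPKM, a log2 ratio of -0.25 (0.04 relative to the median gene). Pcgf1, of the complex with Kdm2b and Bcor, was at 3.88 and 3.16 FPKM, a log2 ratio of -0.29 (-0.003 relative to the median gene).

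CBX proteins give canonical PRC1 its chromodomain, which binds H3 methylated at lysine 27. Cbx7, the CBX protein of stem cells, was at 152 FPKM in Hb9 control and 144 FPKM in A2 SMA MNs, with a log2 ratio of -0.08 that becomes 0.21 relative to the median gene. Its locus is shared with Apobec3. Cbx8, a CBX protein linked to differentiating cells, was at 25.8 and 4.49 FPKM, 5.76-fold lower in A2 SMA MNs, with a log2 ratio of -2.52 (-2.23 relative to the median gene). This was the lowest ratio of the 37 members, and 5.93% of all genes had a lower one. Cbx2, which compacts chromatin, was at 35.1 and 18.6 FPKM, a log2 ratio of -0.91 (-0.62 relative to the median gene), and stayed within 2-fold. Cbx6 was at 57.6 and 51.1 FPKM, a log2 ratio of -0.17 (0.12 relative to the median gene), in an entry that also names Npcd and Nptxr.

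The 4 CBX members summed to 270.5 FPKM in Hb9 control and 218 FPKM in A2 SMA MNs. Cbx7 made up 56.2% of this sum in Hb9 control and 66.0% in A2 SMA MNs, while Cbx8 went from 9.55% to 2.06%. The ratio of Cbx7 to Cbx8 was 5.88 and 32.1 in the same order. The sum and the shares include the entry of Cbx6, which also names Npcd and Nptxr. Without that entry the median log2 ratio of the CBX members was -0.91, against -0.54 with it.

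The CBX members also lie in pairs by position. In build NCBI m37, Cbx2 (chr11:118884276-118892584) and Cbx8 (chr11:118897619-118902283) are neighbours on chromosome 11, with 5034 bp between their loci, and both were below 0 under each scaling. Cbx6 (chr15:79616780-79676260) and Cbx7 (chr15:79722089-79801587) lie together on chromosome 15, with 45828 bp between their loci, and for both the sign depended on the scaling.

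PHC proteins polymerise through their SAM domain and cluster PRC1 on chromatin, and this family showed the most divided ratios. Phc1, which stem cells express highly, was at 90.1 FPKM in Hb9 control and 302 FPKM in A2 SMA MNs, 3.35-fold higher, a log2 ratio of 1.74 (2.03 relative to the median gene). Phc2, the main PHC gene of many differentiated tissues, was at 275 and 89.5 FPKM, 3.07-fold lower in A2 SMA MNs, with a log2 ratio of -1.62 (-1.33 relative to the median gene). Phc3 was at 9.68 and 5.01 FPKM, a log2 ratio of -0.95 (-0.66 relative to the median gene; status FAIL). Phc1 had the highest ratio of the 37 members, above that of 97.5% of all genes.

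The PHC sum hid this exchange. Together the 3 genes had 375 FPKM in Hb9 control and 396 FPKM in A2 SMA MNs, with a log2 ratio of 0.08 (0.37 relative to the median gene). Phc2 supplied 73.4% of the sum in Hb9 control and 22.6% in A2 SMA MNs, and Phc1 24.0% and 76.1%. The ratio of Phc1 to Phc2 was 0.328 and 3.37, a 10.3-fold difference that no scaling can alter, since both genes are scaled alike.

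**Figure D2:**
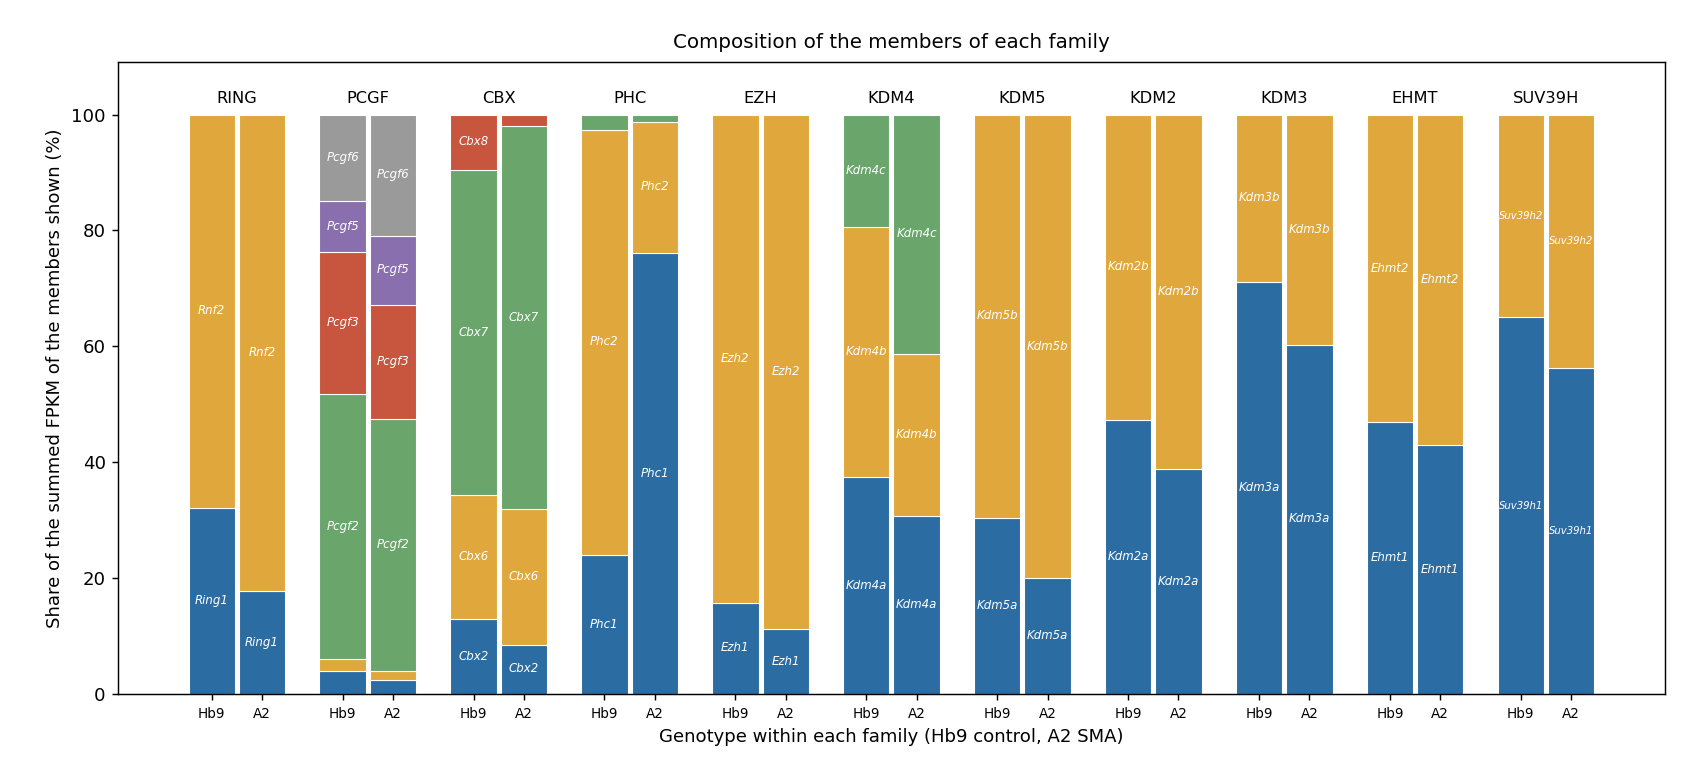
Share of each member in the summed FPKM of the members of its family, in percent, with 1 bar for Hb9 control and 1 for A2 SMA; members under 5% carry no name. Paralogs outside the 37 members, such as Jmjd1c and Kdm5c, are not in the sums. The entry of Cbx6 also names Npcd and Nptxr. Phc1 went from 24.0% to 76.1% of the PHC members and Kdm4c from 19.5% to 41.4% of the KDM4 members.

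Over the 20 Polycomb members, 2 were called higher (Jarid2, Phc1), where 6.82% of all genes were, and 3 lower (Ring1, Cbx8, Phc2), where 22.4% of all genes were. Relative to the median gene the counts were 2 and 2, where 10.4% and 16.5% of all genes were called, since Ring1 was not. The 20 had a median log2 ratio of -0.13 (0.17 relative to the median gene). The PRC1 members had a median of -0.25 over 15 genes, against 0.60 over the 5 PRC2 members, and relative to the median gene these were 0.04 and 0.89. Whether PRC1 and PRC2 differ was not tested.

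Demethylases oppose these marks. Kdm6b (JMJD3), which removes methyl groups from H3K27 and is induced in neural differentiation, was at 77.6 FPKM in Hb9 control and 28.3 FPKM in A2 SMA MNs, 2.75-fold lower, a log2 ratio of -1.46 (-1.17 relative to the median gene; status FAIL). Its locus is shared with 1700064E03Rik. Of the 11 demethylases among the members it was the 1 called lower, and none was called higher, where 22.4% and 6.82% of all genes were. Its paralog Kdm6a (UTX), a partner gene, was at 18.6 and 23.3 FPKM, a log2 ratio of 0.33. Kdm6b was thus the more abundant of the pair in both genotypes.

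The H3K4 demethylases remove an activating mark. Kdm1a (LSD1), the flavin enzyme of the CoREST complex, was at 204 and 199 FPKM, with a log2 ratio of -0.04 that becomes 0.25 relative to the median gene (status FAIL). Kdm5b (JARID1B), a JmjC enzyme of stem cells and progenitors, was at 124 and 179 FPKM, a log2 ratio of 0.53 (0.82 relative to the median gene; status FAIL). Kdm5a, its paralog, was at 54.2 and 44.7 FPKM, a log2 ratio of -0.28 (0.01 relative to the median gene). The ratio of Kdm5b to Kdm5a was 2.29 in Hb9 control and 4.01 in A2 SMA MNs.

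Both H3K36 demethylases bind unmethylated CpG islands. Kdm2b, which brings variant PRC1 to these islands, was at 97.7 and 103 FPKM, a log2 ratio of 0.08 (0.37 relative to the median gene). Kdm2a was at 87.5 and 65.8 FPKM, a log2 ratio of -0.41 (-0.12 relative to the median gene). Kdm2b stood above Kdm2a in both genotypes, with 52.8% of their sum in Hb9 control and 61.1% in A2 SMA MNs.

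Among the H3K9 demethylases, the KDM4 family was divided. Kdm4c, known for its role in stem cells, was at 33.8 and 60.5 FPKM, a log2 ratio of 0.84, and was called higher relative to the median gene at 1.13. Kdm4b was at 74.8 and 40.9 FPKM, a log2 ratio of -0.87 (-0.58 relative to the median gene). Kdm4a was at 64.9 and 44.9 FPKM, a log2 ratio of -0.53 (-0.24 relative to the median gene; status FAIL). In Hb9 control MNs Kdm4b led the 3 members, with 43.1% of their sum, and in A2 SMA MNs Kdm4c did, with 41.4%. The ratio of Kdm4c to Kdm4b was 0.451 and 1.48, a 3.28-fold difference.

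The KDM3 enzymes, which act on H3K9 with 1 or 2 methyl groups, differed less. Kdm3a, regulated by hypoxia in many cells, was at 90.8 and 65.2 FPKM, a log2 ratio of -0.48 (-0.19 relative to the median gene; status FAIL). Kdm3b was at 36.7 and 42.9 FPKM, a log2 ratio of 0.22 (0.51 relative to the median gene; status FAIL). Kdm3a was the more abundant of these 2 members, with 71.2% of their sum in Hb9 control and 60.3% in A2 SMA MNs. Jmjd1c, a partner gene of the same family, was at 31.3 and 36.9 FPKM (status FAIL) and is not in that sum.

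The H3K9 methyltransferases place the silencing mark of heterochromatin. All 5 members were within 2-fold, as were 10590 of the 14964 gene entries. Setdb1, the enzyme that Trim28 recruits to retroelements, was at 40.3 and 40.7 FPKM, a log2 ratio of 0.01 (0.30 relative to the median gene; status FAIL). Ehmt2 (G9a) was at 150.5 and 115 FPKM, a log2 ratio of -0.39 (-0.10 relative to the median gene). Ehmt1 (GLP), its obligate partner, was at 133 and 86.4 FPKM, a log2 ratio of -0.62 (-0.33 relative to the median gene). The partners kept close levels, with a ratio of Ehmt1 to Ehmt2 of 0.883 in Hb9 control and 0.753 in A2 SMA MNs. Suv39h1, which methylates pericentric heterochromatin, was at 40.6 and 23.7 FPKM, a log2 ratio of -0.78 (-0.49 relative to the median gene). Suv39h2, its paralog, was at 21.8 and 18.4 FPKM, a log2 ratio of -0.25 (0.04 relative to the median gene).

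Trim28 (KAP1), the corepressor that KRAB zinc finger proteins use to silence retroelements, was the most abundant member. It was at 1009 FPKM in Hb9 control and 1897 FPKM in A2 SMA MNs, with a log2 ratio of 0.91 (status FAIL), just short of 2-fold, and it was called higher relative to the median gene at 1.20. Among all genes, 92.4% had a lower log2 ratio. Setdb1, its enzyme, did not share this difference in level.

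**Figure D3:**
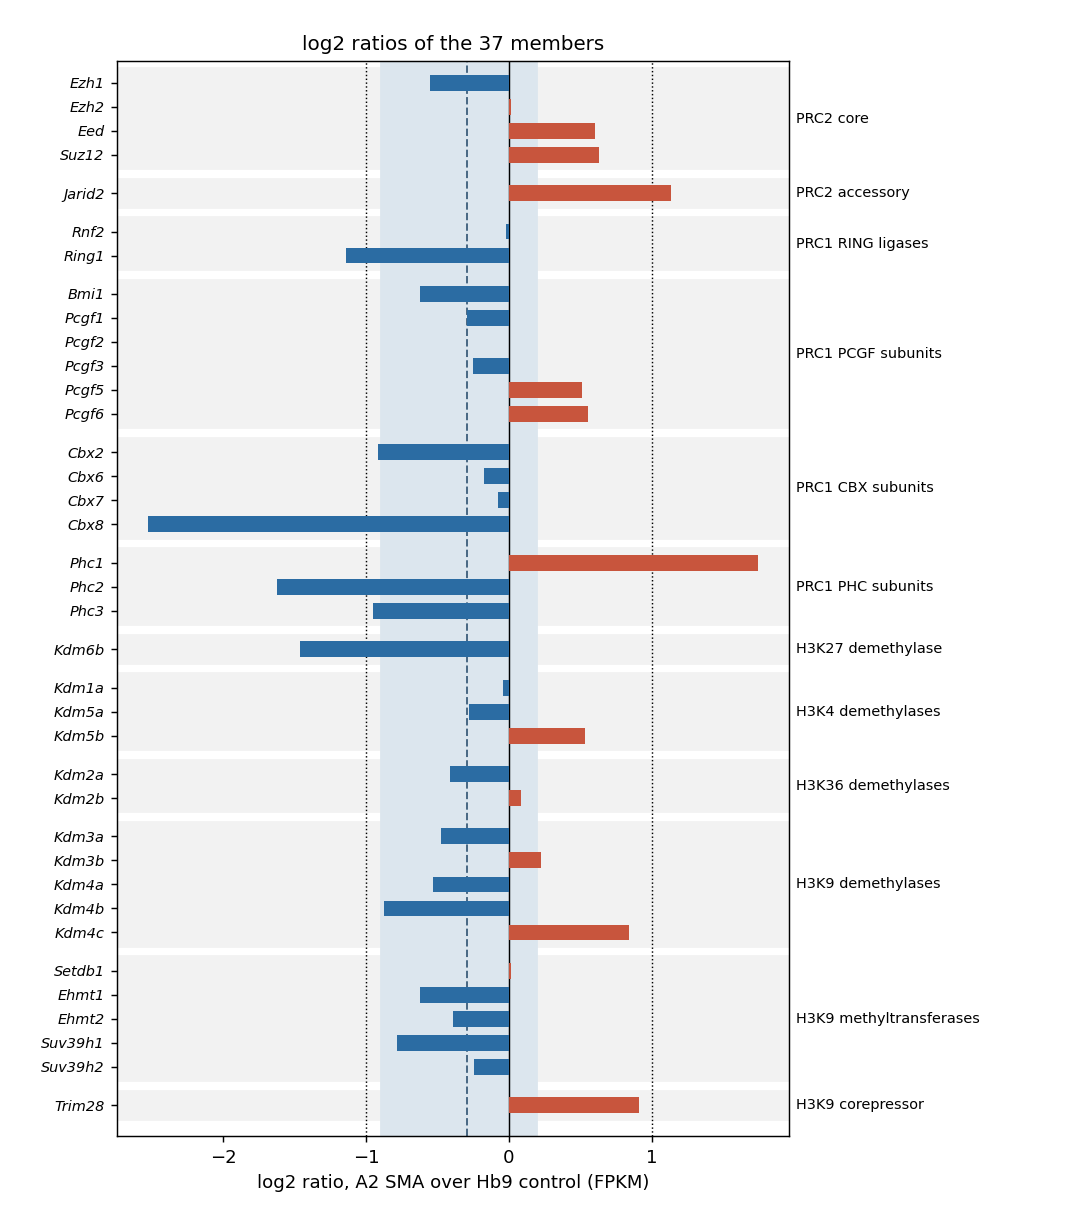
log2 ratio of A2 SMA over Hb9 control for the 37 members by role, with dotted lines at 2-fold, a dashed line at the median of all genes (-0.29) and a shaded band for the middle 50% of all genes (-0.89 to 0.19). Bars past the dotted lines are Jarid2 and Phc1 on the higher side and Ring1, Cbx8, Phc2 and Kdm6b on the lower side; relative to the median gene Trim28 and Kdm4c also reach 2-fold and Ring1 does not.

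The order of the members by level was led by Trim28 in both genotypes. Phc2 came second in Hb9 control MNs and was number 12 in A2 SMA MNs, while Phc1 was number 13 and second. Kdm6b went from number 16 to 27 and Cbx8 from 32 to 36. Pcgf1 was last in both genotypes.

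Promoters of the members were compared by their CpG content, a feature the choice of members did not use. Promoters of 300 bases, from 250 before to 50 after the transcription start, were taken from RefSeq in build GRCm38.p6, and 30 of the 37 members were matched, with 43 starts. Cbx2, Kdm2a, Kdm3b, Kdm4b, Kdm5a, Kdm6b and Pcgf1 were not matched. The members' promoters held a median of 24 CpG dinucleotides, against 7 over all 32851 promoters. At least 1 promoter with 15 or more CpG was held by 27 of the 30 members, against 37.1% of all 27025 genes. The exceptions were Phc1 with 9, Pcgf2 with 10 and Kdm4a with 13. The sets of all promoters and all genes were not filtered by level, while all 37 members had at least 1 FPKM in both genotypes. Whether the members differ in CpG content from other expressed genes was not tested.

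Phc1 and Phc2 are shown because their ratios lay at opposite ends of 1 family. The Phc1 promoter had 9 CpG, and the 3 starts of Phc2 had 45, 19 and 2, of which the richest is shown. The Phc1 promoter (chr6:122340178-122340477, minus strand) and the Phc2 promoter (chr4:128727321-128727620, plus strand) are written 5′ to 3′ with each CpG in capitals.
Phc1: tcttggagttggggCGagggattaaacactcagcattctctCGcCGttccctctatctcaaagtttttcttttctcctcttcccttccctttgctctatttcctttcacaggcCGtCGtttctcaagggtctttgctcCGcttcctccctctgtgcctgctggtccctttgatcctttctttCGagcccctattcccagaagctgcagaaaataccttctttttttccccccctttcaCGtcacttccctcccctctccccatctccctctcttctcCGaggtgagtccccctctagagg
Phc2: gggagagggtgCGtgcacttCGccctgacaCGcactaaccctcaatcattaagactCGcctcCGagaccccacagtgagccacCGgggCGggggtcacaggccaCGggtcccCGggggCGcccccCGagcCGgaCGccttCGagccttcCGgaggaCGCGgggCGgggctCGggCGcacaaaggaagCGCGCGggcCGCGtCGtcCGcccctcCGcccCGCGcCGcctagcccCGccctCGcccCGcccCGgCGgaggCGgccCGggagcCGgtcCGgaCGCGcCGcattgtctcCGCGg
The octamer ATGCAAAT, searched on both strands, was in 1 of the 43 promoters of members, the Phc2 start with 2 CpG, and in 1.74% of all promoters. A match of letters is a description and not a binding site.

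Other genes of the same systems were taken from lists of partners. Of the 66 partner genes reported here all were matched and 65 passed the filter; 3 were called higher and 9 lower, where 6.82% and 22.4% of all genes were. Relative to the median gene 6 and 5 were called, where 10.4% and 16.5% of all genes were. Their median log2 ratio was -0.17.

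The same shares of all genes apply to the counts of each list. Of the 6 PRC2 partners reported here, 2 were called higher, or 3 relative to the median gene. Epop, an elongin-binding subunit of stem cell PRC2, was at 50.9 FPKM in Hb9 control and 203 FPKM in A2 SMA MNs, with a log2 ratio of 1.995. Phf19, a Polycomb-like subunit, was at 4.47 and 17.3 FPKM, a log2 ratio of 1.95 (status FAIL). Of the 11 PRC1 partners reported here, 1 was called higher and 4 lower, or 2 and 2 relative to the median gene. Yaf2, a RING-binding subunit of variant PRC1, was at 50.5 and 16.4 FPKM, a log2 ratio of -1.63. Rybp, its paralog, named after its value was seen, was at 0.792 and 1.98 FPKM, and passed the filter through A2 SMA MNs alone, where it was higher. Bcorl1, a corepressor of variant PRC1, was at 18.6 and 7.53 FPKM, a log2 ratio of -1.30. L3mbtl2, of the complex with Pcgf6, was at 44.0 and 75.3 FPKM and was called higher relative to the median gene alone, at 1.07. The other genes called lower, named after their values were seen, were Auts2 and E2f6, and neither was called relative to the median gene.

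Deubiquitinases, methyltransferases and the remaining demethylases were counted in the same way. Of the 6 genes of PR-DUB, which removes ubiquitin from H2A, 2 were called lower, Foxk1 at 16.4 and 7.99 FPKM, which was not called relative to the median gene, and Asxl3, named after its value was seen, at 2.01 and 0.464 FPKM, which passed the filter through Hb9 control MNs alone. None of the 11 genes of the H3K4 methyltransferase complexes was called, though Wdr5, at 71.9 and 119 FPKM, was called higher relative to the median gene at 1.02, and none of the 8 partners of HP1 and H3K9 methylation was called on either scale. All 7 partners of LSD1 in the CoREST complex were below 0, as were 9866 of the 14964 gene entries, and none was called. Relative to the median gene they ranged up to the -0.05 of Rcor1, and Phf21a, which reads unmethylated H3K4, was the lowest at 104 and 54.3 FPKM. Of the 9 methyltransferases of H3K36, H3K79 and H4K20, 1 was called lower, Nsd2, at 146 and 63.8 FPKM, and it was not called relative to the median gene. Of the 7 other demethylases past the filter, 2 were called lower, the PHF family genes Phf2 at 22.3 and 5.34 FPKM and Kdm7a at 22.5 and 6.99 FPKM.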

How the data were processed

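RNA from sorted MNs was sequenced as single-end reads in 3 samples per genotype. Per the labels and methods, the authors checked reads with FastQC 0.10.1, trimmed them with CutAdapt, mapped them to NCBI m37 with TopHat2 2.04, and used Cufflinks and Cuffdiff. The deposited gene table holds FPKM values made by the authors, 1 per genotype. Its other columns (fold change, statistic, p, q and significance) hold the authors' comparison and were not used. Its status column was read only for FAIL, which marks a comparison that did not complete.

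Python 3.11.15, numpy 2.4.6, pandas 2.3.3 and matplotlib 3.10.9 were used. Ratios had no pseudocount. With 1 value per genotype no test was run, and the procedure was tested on simulated data. Those data held set ratios without replicate noise, so this checks the arithmetic and gives no error rate. A median or ratio was taken to have moved where it shifted by more than 1.5-fold (0.58 on the log2 scale), and a count where it changed by more than 1.5 times. Named genes were all members, the 2 highest and 2 lowest of each partner list with at least 5 FPKM (printed where past 2-fold on either scale, with Jmjd1c, Rcor1, Kdm6a, Phf21a and the target genes), Smn1, Mnx1, and the most abundant marker of each list; others are said to be named after their values were seen. The motor neuron markers Lhx4, Slc5a7, Prph and Isl2 were likewise named after their values were seen. Members and lists were chosen with earlier results of these data known. Tubb3, Map2, Slc18a3 and Sox1 were not analysed here. Loci are those of the table, and 9 members share theirs with another named gene of at least 1 FPKM. They are Pcgf2, Cbx7, Kdm6b, Kdm1a, Kdm5a, Kdm2b, Setdb1, Suv39h1 and Suv39h2. Genes left out of the partner lists are not reported here, and the counts of partners do not include them.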

Additional observations from a re-analysis of the deposited data

How the results depend on the processing

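Alternatives were 3 scalings (median gene, upper quartile, and the reference genes Gusb, Pgk1 and Rpl13a), pseudocounts of 0.1 and 1 FPKM, no filter, a mean of at least 5 FPKM, summed entries, and leaving out entries that name more than 1 gene or have status FAIL. The filters, the summed entries and the entries left out could not change the ratio of a member that was kept, since each member has 1 entry. A pseudocount could, and with 1 FPKM the largest shift was that of Cbx8, from -2.52 to -2.29. With a mean of at least 5 FPKM, 4.18% of all genes were called higher and 18.1% lower, against 6.82% and 22.4% in the main setting. With a pseudocount of 1 FPKM these shares were 4.37% and 17.4%. Under both settings the members called higher and lower stayed at 2 and 4. The scalings shifted ratios by 0.29, 0.29 and 0.14, and members called higher went from 2 to 4 with the median gene, 4 with the upper quartile and 3 with the reference genes, while members called lower went from 4 to 3, 3 and 4. The construction of a scaling, a constant added to all ratios, accounts for these changes. With a 1.5-fold threshold 6 members were called higher and 10 lower, where 12.7% and 35.4% of all genes were, as a lower threshold must allow. Without status FAIL, which removes Phc3, the median of the PHC subunits went from -0.95 to 0.062, and members called lower went from 4 to 3, since Kdm6b is left out. The median of the members ranged from -0.25 to 0.04. No paired analysis was possible because the table gives 1 value per genotype, and leaving out a replicate was not run for the same reason. The table gives no reads behind a value, so no interval is given for low values such as that of Pcgf1.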

Other observations

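Textbook target genes of Polycomb, developmental regulators that PRC2 keeps silent in stem cells, were read from a list of 14. All 14 were matched and 9 had at least 1 FPKM in either genotype, with a median log2 ratio of -0.13 (0.16 relative to the median gene), 1 called higher and 1 lower (6.82% and 22.4% of all genes were), or 2 and 0 relative to the median gene (10.4% and 16.5% of all genes were). Cdkn2a, which encodes the cell cycle inhibitors that Bmi1 represses, was at 26.2 FPKM in Hb9 control and 35.2 FPKM in A2 SMA MNs, with a log2 ratio of 0.43. Hand1, a factor of trophoblast and heart, was at 14.7 and 26.7 FPKM, a log2 ratio of 0.86 (status FAIL). Sox17, a factor of endoderm, was at 7.22 and 3.36 FPKM, a log2 ratio of -1.11, and Gata4 of the same lineage had a ratio of -0.66 (status FAIL). Eomes, a factor of mesendoderm named after its value was seen, was at 1.35 and 4.44 FPKM, a log2 ratio of 1.72. Relative to the median gene Hand1 was called higher and Sox17 was not called.

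The reference genes also differed in their ratios. Gusb was at 26.2 and 19.02 FPKM, Pgk1 at 33.9 and 31.7 FPKM, and Rpl13a, in an entry that names 4 other genes, at 256 and 281 FPKM.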
